A study of Caenorhabditis elegans with 4 samples.

Results

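The DREAM complex and the Rb-E2F genes of *Caenorhabditis elegans* were examined in dissected gonads and in worms that make very few germ cells. The members were the 8 genes *lin-35*, *efl-1*, *dpl-1*, *lin-9*, *lin-37*, *lin-52*, *lin-53* and *lin-54*. They were taken by gene name under a rule that uses no measured value, although earlier results of these data were known when the set was chosen, and all 8 were found among the 20181 rows of the count table. RNA was sequenced from 2 gonad samples and 2 whole-worm samples, all from young adults. Gonads were dissected from N2, the standard wild-type strain. The whole worms carried the *glp-4(bn2)* mutation, a temperature-sensitive allele in a gene for a valyl-tRNA synthetase that leaves the somatic tissues in place. A growth temperature is not given. Each sample pooled about 50 gonads or worms, and worms of both groups were grown from synchronised larvae on OP50 bacteria. A dissected gonad also contains its somatic sheath, and a *glp-4* worm differs from a gonad in both genotype and tissue, which cannot be told apart here.

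In worms and in other animals, DREAM is an assembly of a pocket protein, an E2F-DP dimer and the MuvB core that binds promoters of cell cycle genes and keeps them repressed in cells that do not divide. LIN-35 is the worm's pocket protein of the retinoblastoma family, EFL-1 and DPL-1 form the E2F-DP dimer, and LIN-9, LIN-37, LIN-52, LIN-53 and LIN-54 make up the MuvB core. Worm genetics found these genes as class B synthetic multivulva (synMuv B) genes, which act redundantly with a class A set in vulval development. Somatic cells of *lin-35* mutants are known to express germline genes out of place, while in the germ line EFL-1 and DPL-1 are known to promote expression of genes of oogenesis.

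All 8 members were higher in gonads than in *glp-4* whole worms. Their log2 fold changes ran from 1.70 for *lin-52* to 4.29 for *lin-54*, with a median of 3.19. Every gonad library lay above every whole-worm library for each of the 8 genes. How common such a separation is among all tested genes was not counted. A gene was called gonad-enriched or soma-enriched when its fold reached 2 and its adjusted p was under 0.05 (quasi-likelihood test of edgeR, Benjamini-Hochberg adjustment over 13101 tested genes). By this rule 8 of 8 members were gonad-enriched and 0 were soma-enriched, with a largest adjusted p of 1.24e-05, for *lin-52*. Among all tested genes 30.9% were gonad-enriched and 53.1% soma-enriched. Over all of them the log2 fold change had a median of -1.50. The median over all 4043 gonad-enriched genes was 2.44. CPM, counts per 1000000 counts of a library, are adjusted by TMM library factors throughout. RNA levels of this kind cannot tell a smaller number of expressing cells from less RNA per cell.

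**Figure D1:**
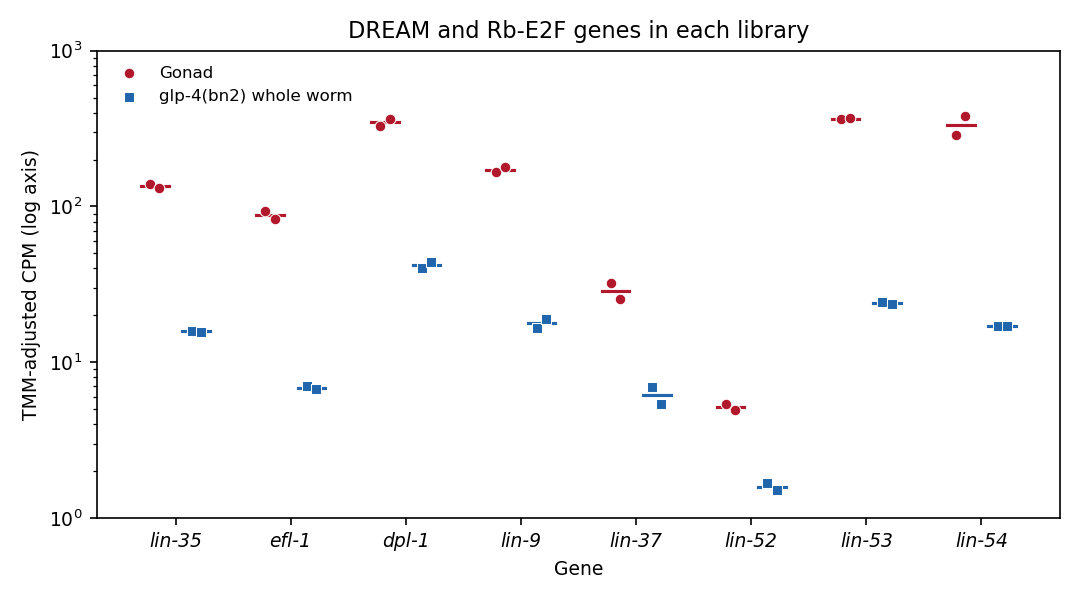
TMM-adjusted CPM of each member (log axis) in the 2 gonad libraries (red circles, left of each pair) and the 2 *glp-4(bn2)* whole-worm libraries (blue squares), with group means as bars. For every gene both gonad libraries lie above both whole-worm libraries, and *lin-52* is the lowest of the 8 in both groups.

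Library totals were between 19538620 and 25624824 counts. Germ cell markers fixed for this comparison (*gld-1*, *glp-1*, *rec-8*, *him-3*, *pgl-1*, *glh-1*, *rme-2* and *puf-5*) summed to 7703 and 7734 CPM in gonads and to 107 and 106 CPM in whole worms, none was at 0 in any library, and 8 of 8 were gonad-enriched. Intestine markers summed to 114 and 88.8 CPM in gonads and to 22065 and 26251 CPM in whole worms. Most of both sums was *vit-6*, with 104 and 79.6 CPM in gonads, against 18239 and 22149 CPM in *glp-4* worms. Body wall muscle markers summed to 224 and 205 CPM in gonads and to 10847 and 12771 CPM in whole worms. Neuron markers (*rab-3*, *unc-64*, *snb-1* and *unc-13*) summed to 53.2 and 49.6 CPM in gonads, against 328.5 and 357 CPM in *glp-4* worms. Most of the gonad sum was *snb-1*, with 44.7 and 41.4 CPM in gonads, against 69.1 and 72.0 CPM in *glp-4* worms. *snb-1* was called in neither direction, and the other 3 neuron markers were soma-enriched. Epidermal markers summed to 4.60 and 3.48 CPM in gonads, against 779 and 822.5 CPM in *glp-4* worms, and *dpy-7* and *rol-6* were at 0 in both gonad libraries. Markers of the gonadal sheath and spermatheca were present in both groups, at 555 and 582 CPM in gonads, against 488 and 531 CPM in *glp-4* worms, most of it from *fln-1*. Of these 6 markers 1 was gonad-enriched, 3 were soma-enriched and 2 were neither. *inx-8* had 68.6 and 58.0 CPM in gonads, against 23.4 and 26.2 CPM in *glp-4* worms, and *ceh-18* had 1.66 and 1.56 CPM in gonads, against 64 and 72.5 CPM in *glp-4* worms. Of 5 sperm markers, *spe-38* and *msp-3* were at 0 in every library, and the list summed to 2.04 and 2.05 CPM in gonads, against 0.185 and 0.348 CPM in *glp-4* worms. The labels do not tie the duplicates to separate cultures. The p-values therefore rest on the spread between these libraries, part of which may be technical.

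*lin-35* (WBGene00003020, chromosome I, 5807709 to 5815637, plus strand) encodes the pocket protein that E2F proteins bind. It had 140 and 131 CPM in gonads, against 15.9 and 15.7 CPM in *glp-4* worms. The libraries of each group lay close together, and the log2 fold change was 3.10 ± 0.14 (SE; adjusted p = 2.35e-14, edgeR). An overlap of 0.902% of its exon length with *hmg-3* on the opposite strand was the only sharing of exon sequence annotated for it. The kit's labels do not state that strand was kept, so reads in such overlaps could not be assigned to a strand.

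Both genes of the E2F-DP pair were gonad-enriched. *efl-1* (WBGene00001161, chromosome V, 16958590 to 16965675, minus strand), which encodes the E2F subunit, had 94.1 and 82.8 CPM in gonads, against 6.99 and 6.73 CPM in *glp-4* worms. Its log2 fold change was 3.69 ± 0.16 (SE; adjusted p = 1.15e-14, edgeR). *dpl-1* (WBGene00001061, chromosome II, 9169910 to 9172565, plus strand), which encodes the DP subunit that pairs with E2F proteins to bind DNA, had 328 and 366 CPM in gonads, against 40.0 and 44.0 CPM in *glp-4* worms. Its log2 fold change was 3.05 ± 0.14 (SE; adjusted p = 3.70e-14, edgeR).

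In the MuvB core the steepest differences were those of the DNA-binding and the histone-binding subunits. *lin-54* (WBGene00003037, chromosome IV, 13241044 to 13243401, plus strand) encodes the subunit that contacts DNA directly through cysteine-rich repeats. It had 286 and 382 CPM in gonads, against 17.2 and 17.0 CPM in *glp-4* worms. The gonad libraries were farther apart for this gene than for *lin-53*, and the log2 fold change of 4.29 ± 0.17 (SE; adjusted p = 1.73e-15, edgeR) was 4.08 to 4.53 when single libraries were left out. *lin-53* (WBGene00003036, chromosome I, 9618196 to 9619760, minus strand) encodes a WD-repeat histone chaperone of the RbAp48 type that also serves in other chromatin complexes. It had 366 and 368 CPM in gonads, against 24.5 and 23.5 CPM in *glp-4* worms, and a log2 fold change of 3.93 ± 0.14 (SE; adjusted p = 7.60e-16, edgeR).

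The other core subunits differed less. *lin-9* (WBGene00002998, chromosome III, 8900237 to 8904131, minus strand), whose product is a core MuvB subunit, had 165 and 179 CPM in gonads, against 16.7 and 19 CPM in *glp-4* worms, and a log2 fold change of 3.27 ± 0.14 (SE; adjusted p = 1.21e-14, edgeR). *lin-37* (WBGene00003022, chromosome III, 7070890 to 7072552, minus strand), whose mammalian counterpart is needed for repression by DREAM, had 32.1 and 25.5 CPM in gonads, against 6.90 and 5.38 CPM in *glp-4* worms. Its log2 fold change was 2.23 ± 0.20 (SE; adjusted p = 1.16e-09, edgeR), and the groups did not overlap although the replicates of both groups differed more, relative to their means, than those of *lin-35*.

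*lin-52* (WBGene00003035, chromosome III, 9824083 to 9824750, minus strand) encodes the small subunit that in humans joins the pocket protein to the core. It was counted least, with 113 and 111 reads in gonads, against 36 and 39 in *glp-4* worms. These are 5.36 and 4.96 CPM in gonads, against 1.67 and 1.51 CPM in *glp-4* worms. Its log2 fold change of 1.70 ± 0.29 (SE) was the smallest of the members and the least precise. It is also the only member under a 4-fold difference, so a minimum of 4 instead of 2 left 7 members gonad-enriched. Of its exon length, 8.80% is shared with *arl-5* on the opposite strand, which had 26.1 and 31.0 CPM in gonads, against 14.1 and 12.4 CPM in *glp-4* worms. The part of *arl-5* reads in the *lin-52* counts was not tested.

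**Figure D2:**
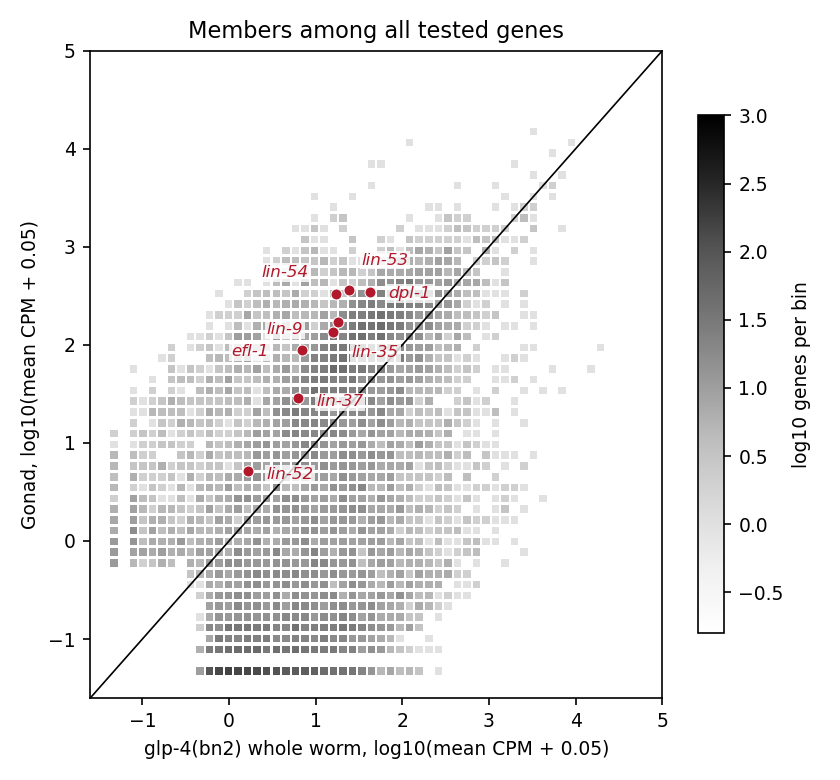
Mean CPM in *glp-4(bn2)* whole worms (horizontal) and in gonads (vertical), both as log10(mean CPM + 0.05), with grey squares shaded by the number of tested genes and members in red. The line marks equal levels; all 8 members lie above it.

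Levels of different genes were compared per kilobase of exon, using union exon lengths of the Ensembl release 115 annotation. In gonads the order was *lin-53* (251 ± 1.24 CPM per kb, SD, n = 2), *lin-54* (212 ± 43.2), *dpl-1* (158 ± 12.2), *lin-9* (74.9 ± 4.10), *efl-1* (63.5 ± 5.72), *lin-35* (42.2 ± 2.01), *lin-37* (30.6 ± 4.98) and *lin-52* (9.09 ± 0.505 CPM per kb). The step between *lin-53* and *lin-54* was smaller than the combined spread of their libraries. With coding length in place of exon length, the libraries of *lin-53* and *lin-54* overlapped, as did those of *lin-9* and *efl-1*. The highest member stood 27.6-fold above the lowest.

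In whole worms the members lay closer together and in another order, with *dpl-1* first at 19.1 ± 1.29 CPM per kb (SD, n = 2). It was followed by *lin-53* (16.4 ± 0.448), *lin-54* (10.8 ± 0.105), *lin-9* (7.75 ± 0.704), *lin-37* (6.53 ± 1.15), *efl-1* (4.93 ± 0.132), *lin-35* (4.91 ± 0.0385) and *lin-52* (2.80 ± 0.197 CPM per kb). Libraries of *lin-9* and *lin-37* overlapped, as did those of *efl-1* and *lin-35*. With coding length neither pair overlapped, and the libraries of *lin-37* and *efl-1* did. The highest member was 6.84-fold above the lowest. Ranked per kilobase among all tested genes with an annotated length, *lin-53* was at percentiles 96.8 and 96.6 in gonads, against 66.7 and 65.4 in *glp-4* worms. The same ranks for *lin-52* were 60.6 and 60.5 in gonads, against 31.3 and 29.8 in *glp-4* worms.

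Ratios of members within a library do not depend on how libraries are scaled, and 7 such ratios were computed. With 2 libraries against 2 the smallest two-sided p of an exact permutation test is 0.333, which all 7 reached, so none could pass 0.05. They are therefore given as values. The E2F-DP ratio, *dpl-1* over *efl-1* per kilobase, was 2.21 and 2.80 in gonads, against 3.63 and 4.14 in *glp-4* worms. *lin-35* over *efl-1* was 0.646 and 0.686 in gonads, against 0.984 and 1.01 in *glp-4* worms. Gonad libraries thus had less *dpl-1* and less *lin-35* RNA for each unit of *efl-1* RNA, which restates the larger log2 fold change of *efl-1*. The groups did not overlap for either ratio, but both ratios share their denominator. How often other gene pairs separate in this way was not counted.

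Within the MuvB core *lin-54* had the largest log2 fold change, so every core ratio over it is lower in gonads. These ratios, and the core shares below, restate the fold changes given above. The largest shifts were those of *lin-52* and *lin-37* against *lin-54*. The ratio of *lin-52* to *lin-54* was 0.0520 and 0.0360 in gonads, against 0.269 and 0.247 in *glp-4* worms, a log2 difference of -2.57. That of *lin-37* to *lin-54* was 0.188 and 0.112 in gonads, against 0.673 and 0.531 in *glp-4* worms, a log2 difference of -2.05. For *lin-9* over *lin-54* the values were 0.396 and 0.320 in gonads, against 0.664 and 0.766 in *glp-4* worms. *lin-53* and *lin-54* kept the closest proportion, at 1.37 and 1.04 in gonads, against 1.53 and 1.49 in *glp-4* worms, a log2 difference of -0.34 that became -0.14 without gonad replicate 2 and -0.54 without gonad replicate 1.

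**Figure D3:**
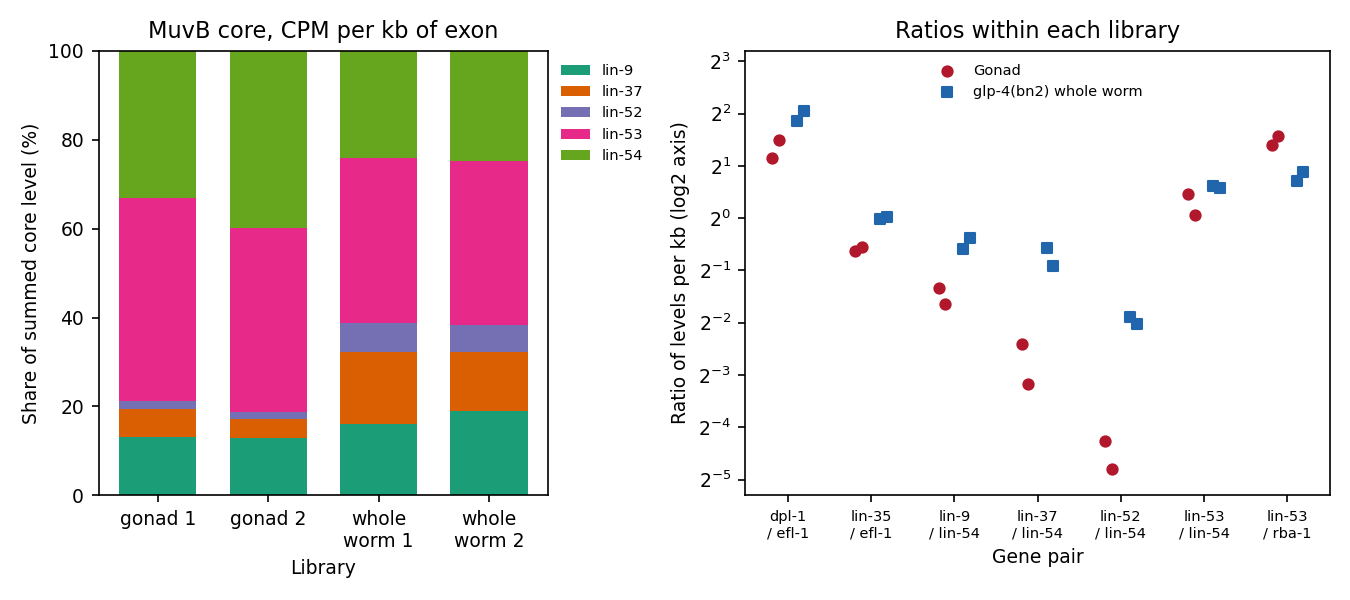
Left, share of each MuvB core gene in the summed core level (CPM per kb of exon, percent) in each gonad and *glp-4(bn2)* whole-worm library. Right, ratios of levels per kilobase within each library (log2 axis), gonads as red circles and whole worms as blue squares. The groups do not overlap for any of the 7 ratios, several of which share a denominator (*lin-54* or *efl-1*). *lin-9*, *lin-37* and *lin-52* take larger shares in whole worms.

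As shares of the summed core level, *lin-53* and *lin-54* together with *lin-9* made up most of the core RNA in every library. *lin-54* held 33.2% and 39.9% of it in gonads and 24.2% and 24.8% in whole worms. *lin-37* held 6.24% and 4.46% in gonads and 16.3% and 13.2% in whole worms, and *lin-52* held 1.73% and 1.44% in gonads and 6.50% and 6.11% in whole worms. The summed level was 547 and 608 CPM per kb in gonads, against 45.2 and 43.5 CPM per kb in *glp-4* worms.

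Whole-worm RNA of the members was between 5.11% (*lin-54*) and 30.8% (*lin-52*) of the gonad level, with a median of 11.0%. For the 8 germ cell markers that share ran from 0.569% (*puf-5*) to 5.0% (*glh-1*), with a median of 1.40%. Each member thus kept a larger share in whole worms than any of these markers, with *lin-54* and *glh-1* nearly level. The part of remaining germ cells in the members' whole-worm RNA was not tested.

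Some members have close neighbours on the same strand, and these did not all follow them. *rba-1*, which encodes another RbAp48-type protein, starts 88 bases downstream of *lin-53*, at 9616516 to 9618107 on chromosome I. It had 126 and 113 CPM in gonads, against 13.6 and 11.6 CPM in *glp-4* worms, and a log2 fold change of 3.25 ± 0.15 (SE; adjusted p = 3.29e-14, edgeR). Per kilobase, *lin-53* over *rba-1* was 2.64 and 2.97 in gonads, against 1.64 and 1.84 in *glp-4* worms. The 2 genes are paralogs, and how the authors' counting treated reads shared by paralogs is not given in the sources used here.

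*ZK632.9* lies 126 bases upstream of *lin-52* and was soma-enriched, with 31.9 and 23.0 CPM in gonads, against 103 and 89.9 CPM in *glp-4* worms (log2 fold change -1.82 ± 0.16, SE; adjusted p = 9.42e-10, edgeR). It thus differed in the direction opposite to *lin-52*. *ZK418.5*, 60 bases upstream of *lin-37*, was gonad-enriched by 1.78 ± 0.13 (SE) on the log2 scale. Downstream of *lin-54*, *JC8.4* and the cytochrome oxidase assembly gene *cox-11* were gonad-enriched by 2.22 ± 0.26 and 1.99 ± 0.19, less steeply than *lin-54* itself.

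The tested genes with a name whose 4 values were most like the median of the members were *fkh-4*, *ztf-8* and *npp-19*. Likeness was the Euclidean distance between centred log2(CPM + 0.5) values in the 4 libraries, at 0.0349, 0.0574 and 0.0821. *ztf-8*, a zinc-finger gene, had 256 and 270 CPM in gonads, against 25.9 and 28.8 CPM in *glp-4* worms. *npp-19*, which encodes a nuclear pore protein, had 322 and 333 CPM in gonads, against 33.4 and 39.0 CPM in *glp-4* worms. The forkhead gene *fkh-4* had 5 and 8 counts in whole worms, where the added 0.5 compresses its difference, and its fitted log2 fold change of 4.55 ± 0.37 (SE) is larger than that of any member. By the same measure *lin-9* was the member nearest to the median (0.0749) and *lin-52* the farthest (1.77).

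Regulators of the pocket protein pathway did not move as one. Of 11 tested genes 8 were gonad-enriched and 1 was soma-enriched, against 30.9% and 53.1% of all tested genes. The list's log2 fold changes had a median of 2.33. Highest by CPM were *cdc-14*, which encodes a cell cycle phosphatase (1007 and 1201 CPM in gonads, 200 and 239 CPM in *glp-4* worms), and *cdc-25.1*, which encodes a phosphatase that activates cyclin-dependent kinases (576 and 507 CPM in gonads, 18.3 and 18.5 CPM in *glp-4* worms). *fzr-1*, which encodes an activator of the anaphase-promoting complex and acts redundantly with *lin-35*, had 202 and 212 CPM in gonads, against 110 and 128 CPM in *glp-4* worms and stayed under the fold minimum (log2 fold change 0.80 ± 0.13, SE).

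The kinase inhibitor gene *cki-1*, whose product holds cells in a resting state, was the soma-enriched regulator. It had 3 and 7 counts in gonads, against 115 and 149 in *glp-4* worms, a log2 fold change of -4.56 ± 0.41 (SE; adjusted p = 1.80e-09, edgeR). Its relative *cki-2*, named after its values were seen, was gonad-enriched by 3.03 ± 0.18. Also named after their values were seen were *cyd-1* and *cdk-4*, which encode the cyclin D and the kinase known to oppose LIN-35. *cyd-1* was gonad-enriched, with 5.41 and 5.09 CPM in gonads, against 0.463 and 0.619 CPM in *glp-4* worms. *cdk-4* had 14 and 11.9 CPM in gonads, against 11.7 and 11.6 CPM in *glp-4* worms (adjusted p = 0.435, edgeR), and the sign of its small difference changed with the scaling.

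The remaining E2F-family genes went in different directions. *efl-2* had 37.7 and 40.8 CPM in gonads, against 12.9 and 12 CPM in *glp-4* worms, and a log2 fold change of 1.66 ± 0.16 (SE; adjusted p = 5.01e-09, edgeR). *efl-3* had 8.40 and 11.1 CPM in gonads, against 19.7 and 21.5 CPM in *glp-4* worms, and a log2 fold change of -1.08 ± 0.19 (SE; adjusted p = 1.95e-05, edgeR). *efl-3* lay just past the fold minimum, and its difference was -0.85 without gonad replicate 1, which ended the call.

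Other synMuv B genes and their heterochromatin partners were all gonad-enriched, 14 of 14, against 30.9% of all tested genes. Their log2 fold changes had a median of 2.27, below the median of 2.44 over all gonad-enriched genes. Highest by CPM were *lin-13*, which encodes a zinc-finger protein (1287 and 1532 CPM in gonads, 369 and 417 CPM in *glp-4* worms), *let-418*, which encodes a Mi-2 chromatin remodeller (1205 and 1353 CPM in gonads, 522 and 555 CPM in *glp-4* worms), and its partner gene *mep-1* (616 and 656 CPM in gonads, 177 and 207 CPM in *glp-4* worms). Their log2 fold changes were 1.84 ± 0.16, 1.25 ± 0.15 and 1.73 ± 0.15 (SE). With upper-quartile scaling 11 of the 14 passed the fold minimum, and *let-418* did not. Of 3 synMuv A genes in the table, *lin-38* was gonad-enriched by 2.59 ± 0.16 (SE), while *lin-15A* (0.70 ± 0.15) and *lin-8* (0.33 ± 0.21, adjusted p = 0.133, edgeR) were not called, and the sign of *lin-8* changed with upper-quartile scaling.

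Genes known as suppressors of synMuv B phenotypes were mostly gonad-enriched. Of 8, 6 passed in that direction and 0 in the other, against 30.9% and 53.1% of all tested genes. The median log2 fold change was 3.15. *gfl-1*, which encodes a YEATS-domain protein, had 342 and 428 CPM in gonads, against 34.6 and 45.6 CPM in *glp-4* worms. *mes-4*, which encodes a histone H3 lysine methyltransferase, had 366 and 414 CPM in gonads, against 10.2 and 13.3 CPM in *glp-4* worms. *zfp-1*, which encodes a PHD zinc-finger protein, did not pass, with 250 and 275 CPM in gonads, against 221 and 253 CPM in *glp-4* worms (log2 fold change 0.14 ± 0.14, SE; adjusted p = 0.310, edgeR), and its sign changed with the scaling.

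Partners of RbAp46/48-type proteins in other complexes covered a wide range. Of 14 tested genes, *rba-1* among them, 10 were gonad-enriched and 1 soma-enriched, against 30.9% and 53.1% of all tested genes. Their log2 fold changes had a median of 2.80. *hda-1*, which encodes a histone deacetylase, was gonad-enriched by 2.97 ± 0.16 (SE), with 447 and 550 CPM in gonads, against 55.0 and 71.7 CPM in *glp-4* worms. *egl-27*, which encodes a subunit of the Mi-2 deacetylase complex, had 587 and 700 CPM in gonads, against 308 and 369 CPM in *glp-4* worms and fell short of the fold minimum (0.93 ± 0.15). It passed that minimum with RLE factors (1.01), with DESeq2 (1.01), without gonad replicate 1 (1.09) and without whole-worm replicate 2 (1.04), and the list's gonad-enriched count was 9 to 12 over the alternatives. *chd-3*, a paralog of *let-418*, was the soma-enriched gene, with 82.0 and 66.3 CPM in gonads, against 145 and 160 CPM in *glp-4* worms (-1.04 ± 0.14, SE; adjusted p = 4.55e-07, edgeR). Its fold was under 2 without gonad replicate 2 (-0.88) or whole-worm replicate 2 (-0.99).

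Cell cycle genes of the type that E2F regulates differed more steeply than any member at their median. All 28 tested genes were gonad-enriched, against 30.9% of all tested genes. Their log2 fold changes ran from 2.19 to 7.11, with a median of 5.74. The part of this count that follows from the choice of list was not tested. *cyb-3*, a cyclin B gene, had 1605 and 1928 CPM in gonads, against 18 and 20.9 CPM in *glp-4* worms. *mcm-7*, a replicative helicase gene, had 1083 and 1406 CPM in gonads, against 21.6 and 28.3 CPM in *glp-4* worms. *pcn-1*, which encodes the sliding clamp PCNA, had 1207 and 1240 CPM in gonads, against 24 and 35.2 CPM in *glp-4* worms. At the median, 1.87% of the gonad level was found in whole worms.

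Germline genes of the type that DREAM mutants express in the soma were also all gonad-enriched, 12 of 12, against 30.9% of all tested genes. Their median was 5.80 on the log2 scale. The list holds germline genes and *glp-4* worms make very few germ cells, so this count follows largely from the choice of list. Whole worms held 1.80% of the gonad level at the median. Highest by CPM were Argonaute genes of small RNA pathways, *hrde-1* (2717 and 3437 CPM in gonads, 26.4 and 28.5 CPM in *glp-4* worms), *prg-1* (914 and 869 CPM in gonads, 75.5 and 85.6 CPM in *glp-4* worms) and *csr-1* (777 and 875 CPM in gonads, 122 and 120 CPM in *glp-4* worms). *csr-1* and *prg-1* differed by 2.77 ± 0.15 and 3.47 ± 0.16 (SE), within the range of the members. *pgl-1*, *glh-1*, *rec-8* and *him-3* stand both on this list and among the germ cell markers.

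**Figure D4:**
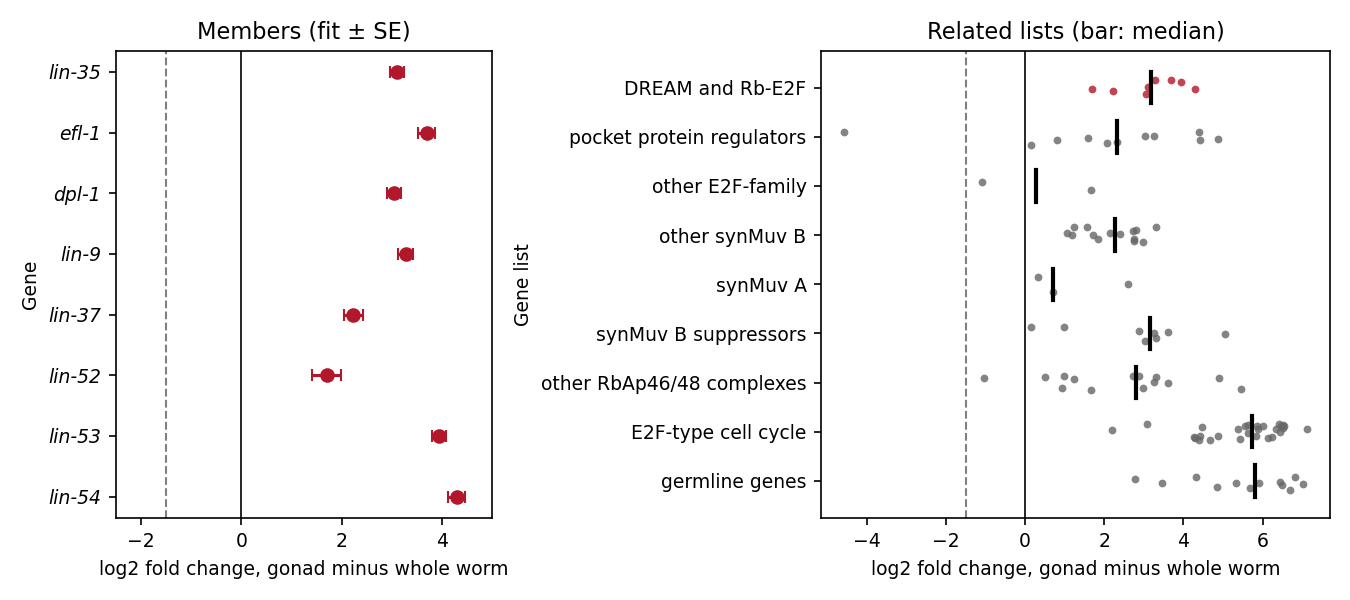
Left, log2 fold change of each member, gonad minus *glp-4(bn2)* whole worm, with SE. Right, log2 fold changes of the members (red) and of the genes on 8 related lists (grey), with list medians as black bars. The related lists share some genes, such as *let-418*, *hda-1*, *mes-2* and *cye-1*. The dashed line is the median of all tested genes at -1.50. The members' median of 3.19 lies below the medians of the cell cycle list (5.74) and the germline list (5.80).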

How the data were processed

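The authors deposited raw counts per gene (whole numbers) and a table on a log2 scale. From the values, the deposited log2 table is log2(x + 8) within 5e-05, where x is the count brought to the mean total of the libraries. The aligner, the counter and the build were not given in the sources used here. Per the labels' protocols, total RNA was depleted of ribosomal RNA and amplified with the Ovation RNA-Seq V2 kit. One row that repeated the counts of another under a second name was left out. Gene names, lengths and coordinates came from Ensembl release 115 (WBcel235), matched by identifier for 19513 of 20181 rows; it may not be the authors' annotation.

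Counts were tested with edgeR 4.0.16 in R 4.3.3 (robust quasi-likelihood fit, group as the only term, TMM, filterByExpr with minimum count 10 and minimum total 15), with Benjamini-Hochberg adjustment over 13101 genes. The script was tested on simulated data in which only a small part of the genes differed. Here 30.9% of tested genes were gonad-enriched and 53.1% soma-enriched, a setting that the simulation did not cover. Log2 fold changes take gonad over *glp-4* worm, with SEs from the F statistic. Alternatives were other scalings and filters, DESeq2 1.42.0, limma 3.58.1 on the deposited log2 table, a replicate block and leaving out each library. Replicates differed by more than sampling noise (chi-square per degree of freedom 18.9 for gonads and 16.9 for whole worms). Each library was treated as 1 sample, although this spread does not show that the libraries are independent.

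The members follow from their names alone, but they and the lists were chosen with earlier results of these data known. Named genes were all members, the 3 most abundant genes of each list, genes called against their list's majority, same-strand neighbours within 1000 bases and the 3 most similar genes; a few others are marked as named after their values were seen. Promoter motifs were not analysed here.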

Additional observations from a re-analysis of the deposited data

How the results depend on the processing

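All 8 members kept their direction in 96 of 96 refits (12 alternatives each), and their call in each alternative that used all libraries. With a fold of at least 4 the count of gonad-enriched genes was 7 among members and 2603 among all tested genes. The members' median log2 fold change was 3.27 with RLE factors, 2.83 with upper-quartile factors, 3.03 with library totals, 3.27 with DESeq2 and 3.01 with limma, and 3.12 to 3.27 when single libraries were left out. The median of all genes shifted by -0.36 with upper-quartile factors and by -0.16 with library totals, the direction in which the members' median moved, and by 0.16 with limma, the opposite direction. The soma-enriched count of the other E2F-family genes and of the RbAp46/48 partners was 0 with RLE factors and with DESeq2, against 1 as reported, and 0 to 1 when single libraries were left out, since *efl-3* and *chd-3* lie at the fold minimum. Signs of small differences turned for *lin-8* (-0.029) and for *zfp-1* (-0.22) and *cdk-4* (-0.21) with upper-quartile factors, for *zfp-1* (-0.012) and *cdk-4* (-0.0041) with library totals, and for *zfp-1* (-0.0088) and *cdk-4* (-0.0066) with limma. The labels number both groups 1 and 2 without naming a shared batch, so the main fit did not pair the samples. Deviations of same-numbered libraries correlated at 0.0893 over genes. With a single replicate difference per group, this value cannot show whether the numbers mark a shared batch. With the number as a replicate block, 8 members and 4019 of all tested genes were gonad-enriched. Among the members, depth limits *lin-52* most, at 36 and 39 counts in whole worms.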
